A study of Mus musculus with 9 samples.

Results

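The 9 genes described here make, bind, break down or respond to retinoic acid in the pituitary: Rdh10, Aldh1a1, Aldh1a2 and Aldh1a3 for synthesis, Crabp1 and Crabp2 for binding inside the cell, Cyp26a1 and Cyp26b1 for breakdown, and the receptor gene Rarb. They were chosen by name for these roles, from 55450 genes counted, and all 9 were among the 19371 genes that passed a filter on mean count and were tested. RNA was sequenced from 9 libraries, 7 from Rathke’s pouch, the embryonic rudiment of the anterior pituitary, and 2 from the mature gland. The embryos were collected at embryonic day 13.5 and carried 1 Egfp reporter allele at Sox2 (Sox2Egfp/+). The adults were mice of postnatal week 8 whose posterior lobe had been removed; the labels give no Sox2 genotype for them. By the study’s methods the embryos were 2 males and 5 females and the adults 1 male and 1 female, without saying which library was which. Both stages were on a mixed 129Sv/c57BL6J background, and each library came from its own animal.

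Retinoic acid is made from vitamin A in successive steps. Retinol is oxidised to retinaldehyde, mainly by the dehydrogenase RDH10 in embryos, and retinaldehyde is oxidised to retinoic acid by the ALDH1A enzymes. CRABP proteins carry it in the cytoplasm, CYP26 enzymes hydroxylate and clear it, and receptors of the RAR and RXR families bind it and act on target genes. In the pituitary, ALDH1A enzymes are known from the developing pouch and from cells of the mature gland.

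Depth ranged from 16738863 read pairs counted on genes in embryo 1 to 36421545 in adult 1. The unit of level is CPM, each count divided by its library size after TMM scaling. Marker genes separated the stages as labelled: Hesx1, a transcription factor gene of the pouch, lay between 11.0 and 40.4 CPM in the embryos and at 0.339 and 0.562 CPM in the adults, while Gh stood at 53470 and 63848 CPM in the adults and at most 1.90 CPM in any embryo. Embryos 1 and 4 stood apart from the other embryos. Of their read pairs, 59.7% and 62.8% fell on genes, compared with 73.9% to 80.0% for the rest, and 8 erythroid markers led by Hbb-y took 14.0% and 16.1% of their counts, against 0.741% to 1.98% in the others. Fold changes of the 9 genes are therefore also given without both of them. P-values measure the spread between these animals, and the adult spread rests on the difference between 2 mice.

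The promoters of a pair of the members carried a shared sequence feature. RefSeq windows (build GRCm38.p6) from 250 bases before to 50 bases after a start site were matched for 6 of the 9 genes, with 7 windows in all, and Rdh10, Aldh1a3 and Crabp2 had none. RAR and RXR dimers are known to bind direct repeats of a 6-base half-site, so 4 spellings of the half-site (AGGTCA with A or G at base 1 and G or T at base 3) were searched on both strands as repeats 1, 2 or 5 bases apart. A repeat with a spacer of 5 was found in 2 of the 7 windows, those of Rarb and Cyp26a1, and in 32 of 32851 promoter windows of the same length (0.0974%). Repeats with a spacer of 1 or 2 were in none of the 7 windows and in 0.222% and 0.268% of all windows. Both stretches are shown, with 6 bases on either side of the repeat, because these genes are the receptor and 1 of the breakdown enzymes. They read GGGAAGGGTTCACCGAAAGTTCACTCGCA in Rarb and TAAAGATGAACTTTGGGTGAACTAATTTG in Cyp26a1. The Rarb stretch is at chr14:16575507-16575535 on the minus strand, with its repeat at -53 to -37 from the RefSeq start site. In the GENCODE annotation it lies in an exon of transcripts Rarb-201 and Rarb-207 and in an intron of Rarb-203 and Rarb-204. The Cyp26a1 stretch is at chr19:37697770-37697798 on the plus strand, with the repeat at -32 to -16 and its half-sites, printed as TGAACT, on the opposite strand. A match of letters is a description and says nothing of binding in these samples.

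The comparison of embryo with adult asked how the stages of development differ in transcript levels. Synthesis genes were present at both stages, but the enzymes differed. Aldh1a2 was the leading ALDH1A gene in every library, Aldh1a3 was nearly confined to the embryos, and Aldh1a1 was higher in the adults. In whole tissue, fewer cells of a type and less RNA per cell cannot be told apart, and this holds for each value below.

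Rdh10 (chr1:16105774-16133734, plus strand) encodes the retinol dehydrogenase. It ranged from 15.4 CPM in embryo 3 through a median of 19.1 to 35.3 CPM in embryo 7, and stood at 18.4 and 17.3 CPM in the adults. The stages overlapped, and embryo 7 alone was well above the rest. The log2 fold change, embryo over adult, was 0.22 ± 0.33 (SE) with an adjusted p of 0.589 by edgeR’s quasi-likelihood test with Benjamini–Hochberg adjustment over all genes tested, as for all fold changes below.

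Aldh1a1 (chr19:20492715-20643465, plus strand) was the only synthesis gene with higher adult levels. The embryos ran from 4.31 CPM in embryo 5 through a median of 12.5 to 19.6 CPM in embryo 1, and the adults had 47.3 and 60.1 CPM. All 7 embryos lay below both adults. The log2 fold change was -2.19 ± 0.42 (adjusted p = 7.29e-04, edgeR), close to the threshold of a fold change of 4 used to call a gene. When the fold change itself was tested against 4, the adjusted p was 0.601, the highest among the 22 alternatives tried, which reached down to 2.64e-06. Aldh1a1 shares 2.19% of the 75-base stretches of its longest transcript with its neighbour Aldh1a7, and a read pair lying in those alone has no single place. No other member shared any with another gene.

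Aldh1a2 (chr9:71215789-71296243, plus strand) had the highest level of the synthesis genes at both stages. It ranged from 156 CPM in embryo 2 through a median of 266 to 423 CPM in embryo 3, against 105 and 107 CPM in the adults. Every embryo lay above both adults. The log2 fold change of 1.36 ± 0.36 (adjusted p = 0.00606, edgeR) did not reach a fold change of 4, so the gene was not called. With adult 1 or adult 2 left out the adjusted p was 0.0651 or 0.0612, in a range of 4.77e-04 to 1 over all alternatives. Aldh1a2 ranked 506th of 19371 genes by mean CPM in the embryo and 1391st in the adult.

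Aldh1a3 (chr7:66390890-66427517, minus strand) was found almost only in the embryos. Its levels ran from 5.43 CPM in embryo 4 through a median of 15.8 to 20.9 CPM in embryo 7, whereas the adults had 0.0970 and 0.253 CPM, from 4 and 9 read pairs. The groups did not overlap. The embryo mean was 81.8 times the adult mean, a log2 fold change of 6.34 ± 0.71 (adjusted p = 1.00e-05, edgeR), with 5.78 without adult 1 and 7.12 without adult 2.

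**Figure D1:**
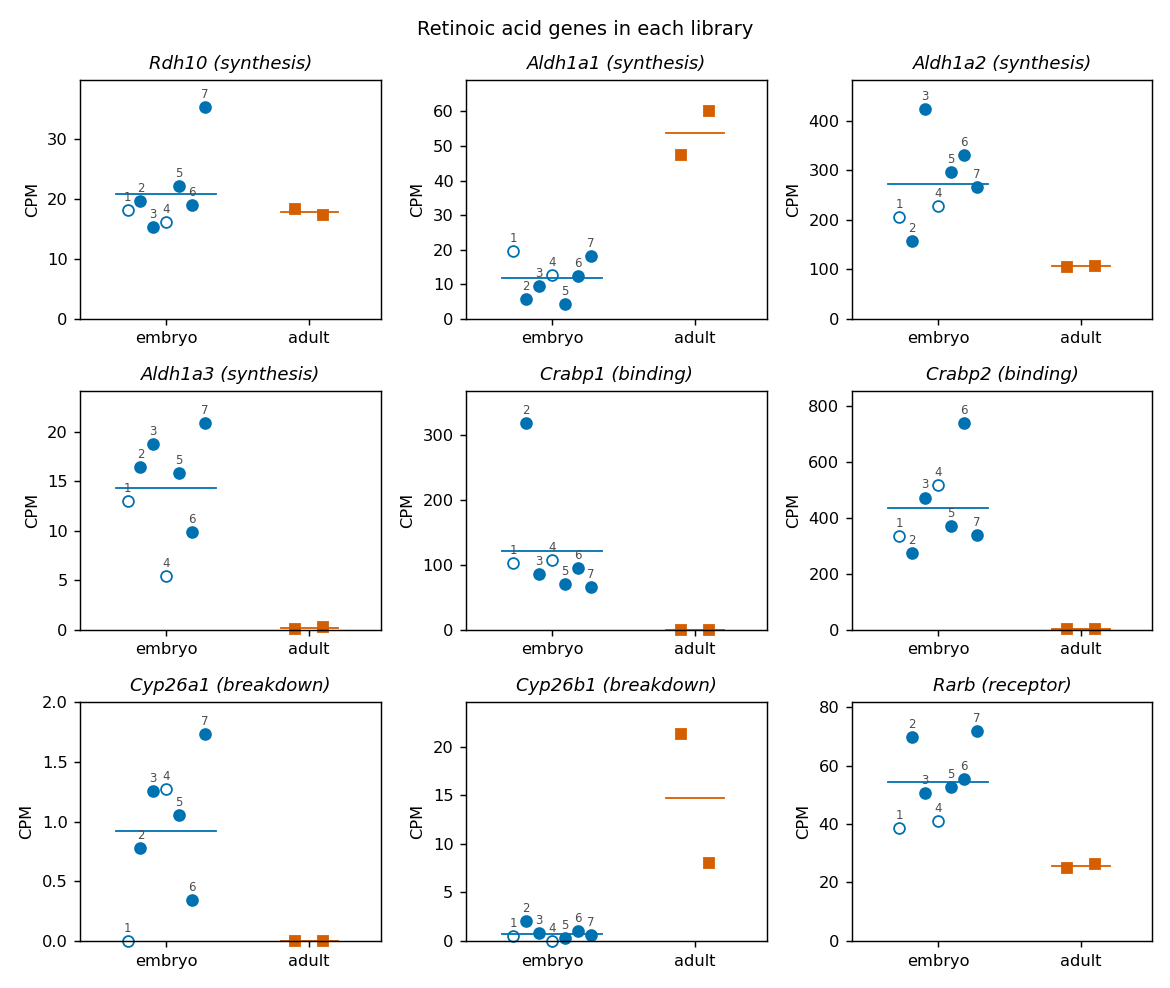
CPM of each of the 9 genes in each library, on linear axes that start at 0 and differ between panels. Circles are the 7 embryos with their numbers (open for embryos 1 and 4), squares the 2 adults, and lines the group means. Crabp1 stands at 318 CPM in embryo 2 and at most 108 CPM in the other embryos, and Cyp26a1 is at 0 in both adults and in embryo 1.

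Both binding genes were far higher in the embryos. Crabp2 (chr3:87948666-87953376, plus strand) encodes the carrier known to pass retinoic acid to receptors in the nucleus. It ran from 276 CPM in embryo 2 through a median of 371 to 741 CPM in embryo 6, and the adults had 1.75 and 2.699 CPM. The lowest embryo was thus far above both adults. This gave a log2 fold change of 7.62 ± 0.57 (adjusted p = 4.05e-07, edgeR). By mean CPM the gene ranked 284th in the embryo and 13648th in the adult.

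Crabp1 (chr9:54764748-54773110, plus strand) encodes the second carrier. It ranged from 65.8 CPM in embryo 7 through a median of 94.6 to 318 CPM in embryo 2, against 0.315 and 0.197 CPM in the adults, from 13 and 7 read pairs. Embryo 2 had nearly all of the spread: the next highest embryo had 108 CPM. The log2 fold change was 8.84 ± 0.88 (adjusted p = 3.97e-06, edgeR), with 8.38 to 9.20 over the fits that left out 1 library at a time. The correction for length and GC content brought Crabp1 to 7.31 and Crabp2 to 6.26.

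The breakdown enzymes were low in the embryos and went in opposite directions between the stages. Cyp26a1 (chr19:37697798-37701536, plus strand) had 0, 23, 31, 18, 29, 7 and 54 read pairs in embryos 1 to 7 and 0 in both adults. Its highest level was 1.73 CPM in embryo 7, and the median was 1.05 CPM. Embryo 1 could not be told from the adults at this depth, since a floor of 3 read pairs there is 0.220 CPM. Set against the same floor in adult 2, 0.0843 CPM, the embryo mean was at least 10.9-fold higher. The test called the gene (adjusted p = 0.00448, edgeR, with 9.90e-05 to 0.218 over all alternatives), and its fitted log2 fold change of 7.62 ± 1.89 is no bound because both adults were at 0.

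Cyp26b1 (chr6:84571414-84593908, minus strand) was higher in the adults. The embryos ran from 0 in embryo 4 through a median of 0.578 to 2.06 CPM in embryo 2, and the adults had 21.3 and 8.07 CPM. Every embryo lay below both adults, and adult 1 was well above adult 2. The log2 fold change was -4.26 ± 0.71 (adjusted p = 2.62e-04, edgeR), with -3.43 without adult 1 and -4.81 without adult 2.

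Rarb (chr14:16430839-16819156, minus strand) encodes a receptor whose own gene is known to respond to retinoic acid. It ranged from 38.7 CPM in embryo 1 through a median of 52.6 to 71.9 CPM in embryo 7, with 24.9 and 26.3 CPM in the adults. All 7 embryos were above both adults, and embryos 1 and 4 were the lowest of them. The log2 fold change was 1.08 ± 0.30 (adjusted p = 0.00818, edgeR), below a fold change of 4, and 1.25 without embryos 1 and 4. Without adult 1 or adult 2 the adjusted p was 0.0908 or 0.0739, in a range of 6.43e-04 to 1 over all alternatives. The 3′ end of Rarb overlaps Top2b on the opposite strand over 4624 bases, and the antisense gene Gm48162 overlaps it elsewhere over 4859 bases. Because the libraries keep the strand, 528 to 2242 read pairs per embryo were assigned to Rarb, of which an unstranded count keeps 22.3% to 32.8%. On the strand opposite to Rarb, 0 to 7 read pairs in any embryo and 26 and 21 in the adults were counted.

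A call required an adjusted p-value under 0.05 together with more than a 4-fold difference, and 6 of the 9 genes were called (66.7%), against 25.8% of all genes tested. Aldh1a3, Crabp1, Crabp2 and Cyp26a1 were the 4 called higher in the embryo, a direction that 11.3% of all genes took. Aldh1a1 and Cyp26b1 were the 2 called higher in the adult, as were 14.6% of all genes. Rdh10, Aldh1a2 and Rarb were not called. The median log2 fold change was 1.36 over the 9 genes, also with Cyp26a1 set to its bound, and -0.04 over all genes. Without embryos 1 and 4 the same 6 genes were called, with log2 fold changes of -2.39 for Aldh1a1, 6.57 for Aldh1a3, 8.92 for Crabp1, 7.65 for Crabp2, 7.99 for Cyp26a1 and -3.95 for Cyp26b1. Rdh10 stood at 0.35, Aldh1a2 at 1.505 and Rarb at 1.25 there, and 5401 of all genes were called. The 9 genes were picked for their roles with earlier results of these data known, so this share is a description of the 9 and not of the pathway.

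**Figure D2:**
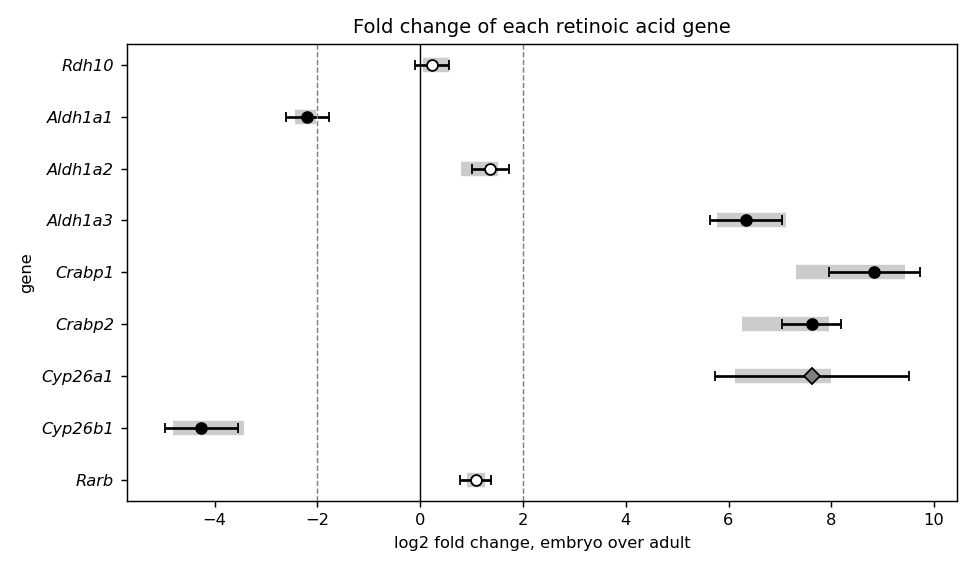
Log2 fold change of each gene, embryo over adult, from edgeR, with bars of 1 SE. Filled points were called, open points were not, the grey diamond is Cyp26a1, whose adults were both at 0, grey bands span all alternatives tried, and dashed lines mark a fold change of 4. No band crosses 0, and the values run from -4.26 for Cyp26b1 to 8.84 for Crabp1.

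Levels of different genes were compared per length, as CPM per kb of the longest transcript. In the embryo the order of mean levels was Crabp2 (468 CPM per kb), Crabp1 (150), Aldh1a2 (120), Rarb (17.5), Rdh10 (5.81), Aldh1a1 (4.99), Aldh1a3 (4.16), Cyp26a1 (0.513) and Cyp26b1 (0.165). The ranges over embryos of Crabp2 and Crabp1 overlapped, as did those of Crabp1 and Aldh1a2, of Rdh10, Aldh1a1 and Aldh1a3, and of the 2 Cyp26 genes. Aldh1a2, Rarb, the group from Rdh10 to Aldh1a3, and the Cyp26 genes were separated from each other in all embryos. In the adult the order was Aldh1a2 (46.8 CPM per kb), Aldh1a1 (22.8), Rarb (8.24), Rdh10 (4.98), Cyp26b1 (3.27), Crabp2 (2.39), Crabp1 (0.319) and Aldh1a3 (0.0508), with Cyp26a1 at 0. Between neighbours in that order, only Cyp26b1 and Crabp2 had overlapping values. In single embryos, Aldh1a2 exceeded Crabp1 in 4 of 7 (embryos 3, 5, 6 and 7), and the mean of Crabp1 includes 396 CPM per kb in embryo 2. Crabp2 was the highest of the 9 genes in every embryo but embryo 2, and in both adults it lay below Aldh1a2, Aldh1a1 and Rdh10.

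Of the summed CPM per kb of Aldh1a1, Aldh1a2 and Aldh1a3, Aldh1a2 made up 88.3% to 95.3% in the embryos, against 69.7% in adult 1 and 65.0% in adult 2. Aldh1a1 made up 1.33% to 8.04% in the embryos, against 30.2% in adult 1 and 34.9% in adult 2. Aldh1a3 made up 1.47% to 6.24% in the embryos and at most 0.101% in the adults. Their relative Aldh1a7, not part of this sum, stood at 4.87 to 13.5 CPM per kb in the embryos, above Aldh1a1 and Aldh1a3 in each of them. The shares of all 3 genes separated the stages in every library. The sum of these 3 genes differed less: it ran from 76.2 CPM per kb in embryo 2 to 197 in embryo 3, against 66.3 and 72.9 in the adults. The summed Cyp26 level went the opposite way, from 0.114 to 1.096 CPM per kb in the embryos against 4.75 and 1.80 in the adults, where all of it was Cyp26b1. Crabp2 made up 73.8% to 87.1% of the Crabp sum in 6 embryos and 42.8% in embryo 2, and 82.7% and 92.2% in the adults, where the sum itself was 2.27 and 3.14 CPM per kb. Embryo 2 was the only library in which Crabp1 exceeded Crabp2.

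**Figure D3:**
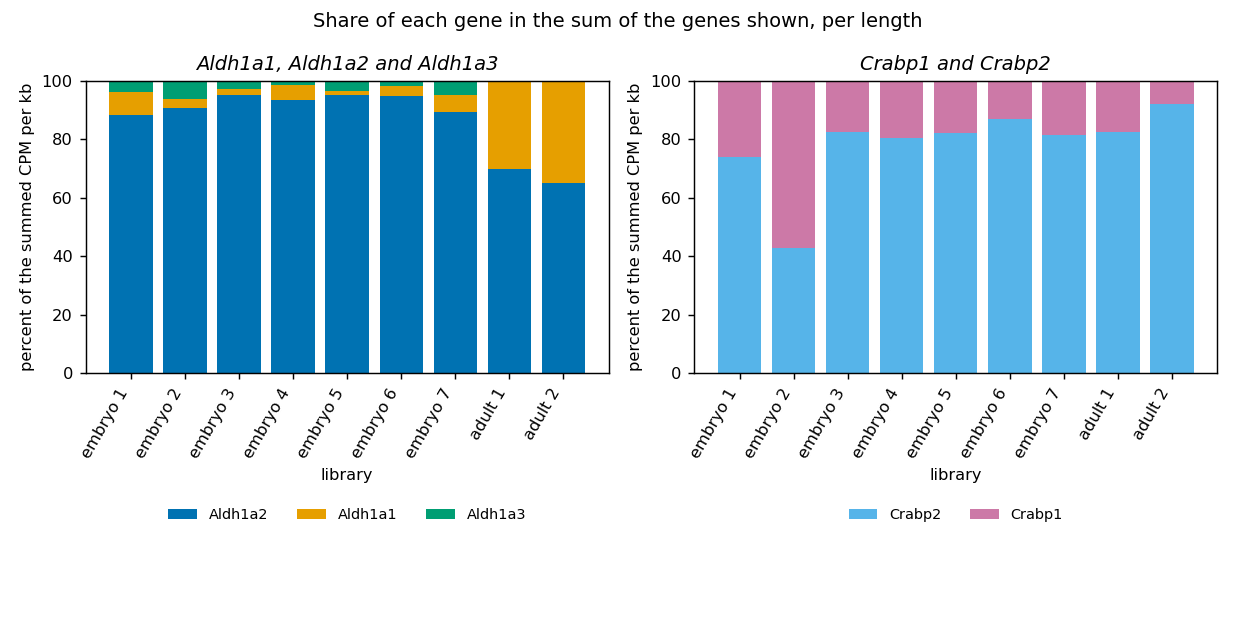
Share of each gene in the summed CPM per kb of the genes shown in a panel, in percent, for each of the 9 libraries. On the left, Aldh1a1 takes 30.2% and 34.9% in the adults and at most 8.04% in any embryo. On the right, Crabp2 takes 42.8% in embryo 2.

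The single embryos differed in their tissue markers as well as in the retinoic acid genes. Embryo 2, with the highest Crabp1 and Cyp26b1 and the lowest Aldh1a2 and Crabp2, had the lowest sum of 8 pouch markers. These summed to 1041, 538.5, 1232, 1034, 1071, 702 and 762 CPM in embryos 1 to 7 and to 490.4 and 407 CPM in the adults, with Pitx1 highest by mean CPM in the embryos. Embryo 2 also had the highest sums of 6 endothelial, 7 neuroectodermal and 6 macrophage markers.

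The endothelial markers, led by mean CPM by Emcn in the embryos and Kdr in the adults, summed to 221, 541, 148, 182, 301, 270.3 and 312 CPM in the embryos and to 132 and 82.6 CPM in the adults. The markers of hypothalamic and infundibular neuroectoderm, led by Rax in the embryos and Dcx in the adults, summed to 90.8, 196, 92.3, 77.1, 115, 134 and 136 CPM in the embryos and to 36.2 and 32.0 CPM in the adults. Olig2 of that list was at 0 in 5 embryos, embryo 2 among them. The macrophage markers, led by C1qb in the embryos and Csf1r in the adults, summed to 167, 255, 122, 119, 122, 106 and 109 CPM in the embryos and to 86.1 and 135 CPM in the adults. Called higher in the embryo were 3 of the 8 pouch, 1 of the 6 endothelial and 4 of 6 tested neuroectodermal markers, and 1 of the 6 macrophage markers was called higher in the adult. Among all genes tested, 11.3% were called higher in the embryo and 14.6% higher in the adult. The part of these tissues in the levels of Crabp1 and the other genes was not tested.

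Mesenchyme and connective tissue markers, 12 genes led by Col3a1 in the embryos and Col1a2 in the adults, summed to 2034, 2273, 757, 1167, 1832, 1742 and 2535 CPM in the embryos and to 798 and 539 CPM in the adults. Embryo 3, with the highest Aldh1a2, had the lowest mesenchymal and the highest pouch sum. Other embryos did not follow this order. Embryos 1 and 4, with pouch sums of 1041 and 1034 CPM, had Aldh1a2 at 206 and 227 CPM. Embryo 6, with a pouch sum of 702 CPM, had Aldh1a2 at 332 CPM. Embryo 7, with the highest Rdh10, Aldh1a3, Cyp26a1 and Rarb, had the highest mesenchymal sum, of which Col3a1 made up 1067 CPM. The list was not uniform. Col3a1, Pdgfra and Foxc1 were highest in embryo 7, but Col1a1, Col1a2, Pdgfrb, Twist1, Twist2 and Prrx1 in embryo 2. Dcn and Foxc2 were highest in embryo 1 and Lum in embryo 6. Of these 12 genes, 8 were called higher in the embryo and 1 higher in the adult, so the marker list moved with the stage as well, and its part in the fold changes was not tested. The 8 erythroid markers, 7 of them called higher in the embryo, summed to 171200 and 213900 CPM in embryos 1 and 4, to between 6123 and 19080 CPM in the other embryos and to 763 and 1977 CPM in the adults. The 5 cartilage markers, led by Col2a1, summed to between 161 and 375 CPM in the embryos and to 15.1 and 8.94 CPM in the adults, with 3 of 4 tested called higher in the embryo. The 10 hormone cell markers, 9 of them called higher in the adult, summed to between 889 and 1940 CPM in the embryos, where Cga led, and to 152800 and 160400 CPM in the adults, where Gh led. Hbb-bh1 and Matn1 were at 0 in both adults, and Lhb was at 0 in embryos 1, 4 and 6.

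**Figure D4:**
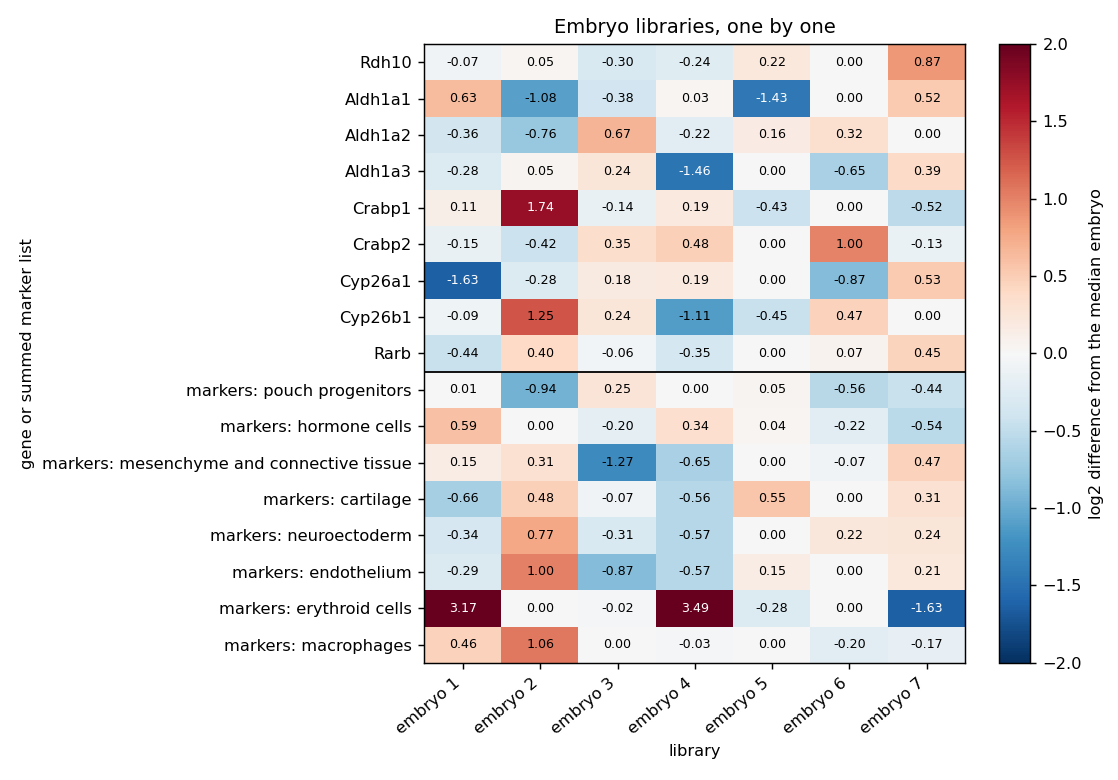
Log2 difference of each embryo from the median of the 7 embryos, for the 9 genes (above the line) and for the summed CPM of each marker list (below it), with a pseudocount of 0.5 CPM and colours limited to between -2 and 2. Embryo 2 stands at 1.74 for Crabp1, 1.06 for macrophages and -0.94 for pouch progenitors, and embryos 1 and 4 at 3.17 and 3.49 for erythroid cells.

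Across the 7 embryos, levels were compared on the log2 scale, as a description over 7 libraries that share the differences in tissue and quality given above. Aldh1a2 went with Crabp2 at a Pearson’s r of 0.629 (Spearman’s rho 0.714) and against Crabp1 at -0.724 (-0.643). The pouch sum had an r of 0.555 and a rho of 0.5 with Aldh1a2, and 0.205 and 0.179 with Crabp2. The macrophage sum went with Crabp1 (r 0.891, rho 0.5) and against Aldh1a2 (r -0.781, rho -0.536), while the erythroid sum had an r of 0.157 and a rho of 0.893 with Crabp1. Aldh1a3 went against the erythroid sum (r -0.752, rho -0.750) and with the percentage of read pairs counted on genes (r 0.697, rho 0.786), and the neuroectodermal sum with Cyp26b1 (r 0.823, rho 0.750). Aldh1a1 and Aldh1a2 had an r of 0.0228 and a rho of -0.250. Rarb went with the percentage of read pairs counted on genes (r 0.880, rho 0.893) and with the neuroectodermal (r 0.869, rho 0.929), cartilage (r 0.844, rho 0.750) and endothelial sums (r 0.711, rho 0.786), and against the erythroid (r -0.880, rho -0.643), hormone cell (r -0.821, rho -0.821) and pouch sums (r -0.717, rho -0.607), whereas Aldh1a2 had an r of 0.288 and a rho of 0.0357 with that percentage. Among 11762 other genes that averaged 100 or more counts in the embryos, those most like Aldh1a2 were Six6 (r 0.982, rho 1), a transcription factor gene of the pouch and eye, Igsf1 (r 0.982, rho 0.964) and 2810408A11Rik (r 0.961, rho 0.893). For Crabp1 they were Tpm2 (r 0.965), Arhgdib (r 0.956) and Nrip2 (r 0.956), and for Crabp2 Nudt5 (r 0.971), Gmnn (r 0.965) and Magoh (r 0.962). Rarb was most like Sgtb (r 0.978), Stard13 (r 0.978) and Gfra1 (r 0.976). Rdh10 was most like Fryl (r 0.998), Fem1b (r 0.994) and Fndc3b (r 0.989), Aldh1a1 like Mblac2 (r 0.954), Uggt2 (r 0.921) and Krit1 (r 0.918), and Aldh1a3 like Pawr (r 0.991), Ppm1d (r 0.991) and Hykk (r 0.980). With so many candidates and 7 libraries, high values of r arise readily.

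The rest of the retinoid pathway was described from 59 further genes in 6 lists, of which 43 were tested. Among these, 9 were called higher in the embryo, 2 higher in the adult and 32 were not called. The share called, 25.6%, was near that of all genes, 25.8%, and the median log2 fold change was 0.04 (-0.16 when scaled by library size alone).

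Of the genes for retinol uptake, transport and storage, 3 of 10 tested were called higher in the embryo and 1 in the adult. Of all genes tested, 11.3% and 14.6% were called in these directions. The median log2 fold change of the list was -0.21. It turned to 0.02 under edgeR’s own filter and to 1.73 with at least 10 counts in every library. Stra6, which encodes the membrane receptor that takes up retinol from its plasma carrier, ran from 31.0 to 93.2 CPM in the embryos against 6.01 and 2.73 CPM, a log2 fold change of 3.51 ± 0.52 (adjusted p = 1.05e-04, edgeR), with 4.17 without adult 1 and 3.04 without adult 2. Every embryo was thus well above both adults for Stra6.

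Rbp2 and Rbp7, which encode retinoid carriers, were near the limits of the call and low. Rbp2 had at most 3.03 CPM in any library and a log2 fold change of 2.30 ± 0.78 (adjusted p = 0.0236, edgeR), and Rbp7 at most 1.63 CPM and -2.64 ± 0.80 (adjusted p = 0.0135, edgeR). The call of Rbp2 was lost without adult 1 (3.17, adjusted p = 0.0549), without adult 2 (1.76, adjusted p = 0.215) and without embryos 1 and 4 (1.97), as well as under the correction for length and GC content (0.79, adjusted p = 0.324) and a replicate block (2.26, adjusted p = 0.257). Its adjusted p ran from 0.00369 to 0.590 over all alternatives. The call of Rbp7 was lost without adult 1 (-2.82, adjusted p = 0.0665) and without adult 2 (-2.47, adjusted p = 0.118), and under a replicate block (-2.36, adjusted p = 0.248), within a range of 0.00105 to 0.425.

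Of the retinol and retinaldehyde oxidoreductases, 2 of 10 tested were called higher in the embryo and 1 in the adult (median 0.48). The shares of all genes tested in these directions were 11.3% and 14.6%. With no filter on counts, 15 of the list were tested and the median was 0.05. Dhrs4 had 54.4 to 97.1 CPM in the embryos and 12.3 and 12.1 CPM in the adults, a log2 fold change of 2.68 ± 0.32 (adjusted p = 1.80e-05, edgeR). Dhrs3, which reduces retinaldehyde back to retinol, had 26.0 to 59.0 CPM against 12.5 and 7.39 CPM, a log2 fold change of 2.08 ± 0.37 (adjusted p = 4.19e-04, edgeR). The Dhrs3 value was only just past a fold change of 4: it was 1.99 without embryo 2 and 1.74 without adult 2. A correction for transcript length and GC content brought Dhrs3 to 1.60 and Dhrs4 to 1.66, below the threshold. Adh1, an alcohol dehydrogenase, stood at 4.10 and 6.07 CPM in the adults and at most 1.62 CPM in the embryos (-2.94 ± 0.67, adjusted p = 0.00226, edgeR). Adh5 had the highest CPM of the list, 130 to 346 CPM in the embryos and 84.1 and 83.6 CPM in the adults, and was not called (1.44 ± 0.33).

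Of 4 further genes from the same families, 2 were tested and both were called higher in the embryo, as were 11.3% of all genes tested. Aldh1a7, the neighbour and close relative of Aldh1a1, had 10.1 to 27.9 CPM in the embryos and 0.0727 and 0.281 CPM in the adults, a log2 fold change of 6.79 ± 0.71 (adjusted p = 5.62e-06, edgeR), with 6.08 without adult 1 and 7.97 without adult 2. The neighbours thus went in opposite directions, although they share 50 stretches of 75 bases. Fabp5, a fatty acid-binding protein gene whose product is also known to bind retinoic acid, had 109 to 227 CPM in the embryos against 14.4 and 13.6 CPM (3.59 ± 0.38, adjusted p = 6.56e-06, edgeR).

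None of the 5 other receptor genes was called by edgeR or by DESeq2, and 3 of them had an unadjusted p-value below 0.05 in edgeR. An adjusted p-value below 0.05 was reached by 2 of the 5, and by 9948 of the 19371 genes tested (edgeR). Rxrb was higher in all 7 embryos, from 56.2 to 166 CPM against 37.3 and 32.7 CPM, and so was Rara, from 24.0 to 49.9 CPM against 15.7 and 12.5 CPM. Their log2 fold changes were 1.52 ± 0.37 and 1.29 ± 0.34, with adjusted p-values of 0.00378 and 0.00571 (edgeR), so they missed the threshold on fold change alone, as Rarb did. Without adult 2 these p-values were 0.0569 for Rxrb, in a range of 1.83e-04 to 1 over all alternatives, and 0.0923 for Rara, in a range of 5.32e-04 to 1. Rxra (0.44 ± 0.33) and Rarg (0.19 ± 0.37) overlapped between the stages, and Rarg changed sign under library size alone and under the correction for length and GC content. Rxrg was lower in all 7 embryos, 4.66 to 17.4 CPM against 18.9 and 20.5 CPM, with a log2 fold change of -1.06 ± 0.45 (adjusted p = 0.0593, edgeR).

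None of the 6 receptor coregulator genes was called by either tool, although all 6 had an unadjusted p-value below 0.05 in edgeR and a negative fold change (median -1.48), which a length and GC correction moved to a median of 0.04. Without the correction, 5 of the 6 reached an adjusted p-value below 0.05, as did 9948 of the 19371 genes tested (edgeR). Ncor1, a corepressor gene with the highest CPM of the list, ran from 41.5 to 178 CPM in the embryos against 167 and 191 CPM in the adults and had a log2 fold change of -1.18 ± 0.48 (adjusted p = 0.0506, edgeR). With that correction it stood at 0.39. Embryos 1 and 4 had the highest Ncor1 of the embryos, at 178 and 132 CPM, and without them its log2 fold change was -1.86 and the list median -1.83. Across all genes the fold change went with transcript length at a Spearman’s rho of -0.388, over genes that are not independent replicates. The members kept their calls with the correction.

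Among genes known to respond to retinoic acid, 2 of 10 tested were called higher in the embryo and none in the adult. These directions took 11.3% and 14.6% of all genes tested. In edgeR, 4 of the list had an unadjusted p-value below 0.05, and DESeq2 called 2. An adjusted p-value below 0.05 was also reached by 4 of the 10, and by 9948 of the 19371 genes tested (edgeR). The median log2 fold change was 0.07, with 1.17 under the correction for length and GC content and -0.16 when scaled by library size alone. Nr2f1, an orphan nuclear receptor gene, had 14.3 to 45.2 CPM in the embryos against 3.61 and 3.57 CPM (2.79 ± 0.47, adjusted p = 3.00e-04, edgeR). Tbx1 had 3.52 to 16.6 CPM against 0.727 and 0.619 CPM (3.58 ± 0.65, adjusted p = 4.70e-04, edgeR). Nr2f2, at 28.5 to 141 CPM against 25.9 and 20.2 CPM (1.52 ± 0.50), lay higher in all 7 embryos than in both adults and was not called. The correction for length and GC content brought it to 2.34, past a fold change of 4, and without embryos 1 and 4 it stood at 1.06. Tshz1 went the other way, with 9.73 to 47.4 CPM in the embryos and 62.4 and 64.9 CPM in the adults. All 7 embryos lay below both adults, and it was not called (-1.27 ± 0.43, adjusted p = 0.0230, edgeR).

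**Figure D5:**
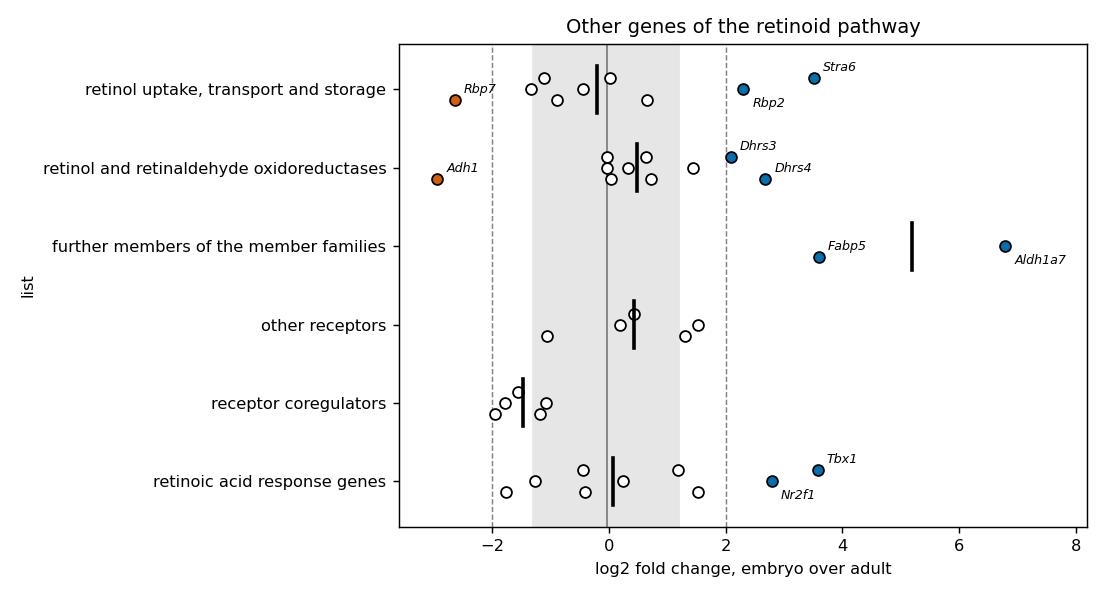
Log2 fold change, embryo over adult, of 40 of the 43 tested genes of the 6 lists. Filled points were called (blue higher in the embryo, orange higher in the adult) and are named, black bars are medians over all tested genes of a list, the grey band holds the middle quartiles of all genes tested around their median line, and dashed lines mark a fold change of 4. Aldh1a7 lies farthest to the right at 6.79, and no receptor or coregulator gene passes the dashed lines.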

How the data were processed

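The authors sequenced 75 bp read pairs from directional poly(A) libraries made from 50 ng of RNA. Per their processing notes reads were trimmed (Trimmomatic 0.39) and placed on mm10 by STAR 2.7.5b. The deposited values are raw counts of read pairs per gene (Ensembl 96, GENCODE M21), without normalisation. Counts of the strand in column 4 were taken, which held 94.8% to 95.6% of the counts of both strands.

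Counted read pairs were 16738863, 28537311, 24816013, 18825731, 24687556, 22393725 and 25755469 in embryos 1 to 7 and 36421545 and 31191117 in the adults. Floors of 3 counts cover counting error only. All genes whose mean count reached 5 were fitted with edgeR 4.0.16 in R 4.3.3 (TMM, quasi-likelihood test, stage as the only term, common dispersion 0.19). Sex, not given per sample in the labels, was not used, nor was any batch, and replicate numbers only number the animals. Read pairs that were unmapped, mapped in several places, on no gene or ambiguous were left out of the library sizes. CPM per kb uses the longest transcript of a gene, and runs of 75 bases shared between genes were sought in those transcripts. The SE is the log2 fold change divided by the root of the F statistic. The study’s filter, adjusted p threshold of 0.05 and fold change threshold of 4 were kept, while its DESeq2 (1.42.0 here) served as an alternative. On simulated counts, 90 of 100 genes given an 8-fold change were called in the right direction, with 5 false calls. Only genes with counts well above the filter were changed there, as many up as down. These figures therefore do not extend to members with few counts, such as Cyp26a1.

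The other alternatives were DESeq2 size factors, library size alone, edgeR’s own filter, no filter, at least 10 counts in every library, the unstranded count, a fold change of 2 or none, a test against a fold change of 4, a replicate block, a correction for length and GC content of transcripts, and libraries left out. The members and gene lists were chosen with earlier results of these data known. Of each list, the text names the genes called and the 2 with the highest mean CPM, and in addition all 5 receptors and Tshz1, but leaves 3 of these genes unnamed. The 3 genes most like a member were sought where that member had a mean count of at least 100 in the embryos, on log2(CPM + 0.5). Figures were drawn with matplotlib 3.10.9.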

Additional observations from a re-analysis of the deposited data

Results flagged for a closer look

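Crabp1 in embryo 2, at 318 CPM, lay far from the other 6 embryos, of which the nearest had 108 CPM. The gap was 0.833 of the whole range of the embryos, above the critical value of Dixon’s test for 7 values. Rdh10 in embryo 7, at 35.3 CPM, was set apart in the same way, with the nearest embryo at 22.3 CPM and a gap of 0.655 of the range. All 9 genes were examined over the 7 embryos, and chance alone sets a sample apart in about 1 in 20 such groups. Without embryo 2 the log2 fold change of Crabp1 was 8.38, and without embryo 7 that of Rdh10 was 0.05. The 2 adults were too few to be examined in this way.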

How the results depend on the processing

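None of the 9 retinoic acid genes changed sign under any alternative in which it could be tested. The 6 called stayed called whichever library was left out, and without both embryos 1 and 4, where 5401 genes and 12 of the other retinoid lists were called. With at least 10 counts in every library only 5 of the 9 could be tested and 2 were called, of 2634 genes called in all (5001 in the fit reported above) and 7 of the other retinoid lists (11). A fold change threshold of 2 called 8960 genes, 8 of the 9 and 21 of the other lists, and no threshold 9948, 8 and 22. Aldh1a2 (1.36) and Rarb (1.08) were then called in both cases. A test against a fold change of 4 called 1744, 5 and 6, and no longer Aldh1a1 (-2.19). Leaving out each library in turn gave 3683 to 5290 genes, 6 of the 9 each time, and 9 to 12 of the other lists. Library size alone moved the median of all genes from -0.04 to -0.26, and fold changes under it are to be read against that shift.

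Among the genes named in the text apart from Tshz1, the sign changed for Rarg (-0.0200 with library size alone, -0.0323 with the correction for length and GC content) and, with that correction, for Ncor1 (0.39). Under it, positive fold changes went from 0 to 4 of the 6 coregulator genes and from 5 to 8 of the 10 response genes. The cause was not tested.

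With a replicate block, which needs the libraries numbered 1 and 2 of each stage, 4103 genes, 5 of the 9 and 10 of the other lists were called. Cyp26a1 was lost (6.13, adjusted p = 0.218, in a range of 9.90e-05 to 0.218 over its alternatives), with 23 counts left in 1 embryo. The samples share only a number: their deviations correlated at 0.0331 for the number 1 and 3.13e-04 for the number 2. With 2 adults, fits without 1 of them assume that the other varies like the embryos. Cyp26a1, Cyp26b1 in the embryos and Aldh1a3 and Crabp1 in the adults rest on few counts.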

Other observations

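The 2 adults differed in Cyp26b1, with 21.3 CPM in adult 1 and 8.07 CPM in adult 2, from 880 and 287 read pairs. Markers of hormone cells, looked at after these values were seen, differed in either direction. In adults 1 and 2, Fshb stood at 1362 and 377 CPM, Lhb at 446 and 219.52 CPM, Prl at 62124 and 29393 CPM, Cga at 7837 and 3845 CPM, Pou1f1 at 138 and 89.3 CPM and Nr5a1 at 51.6 and 50.8 CPM. The other 4 markers were higher in adult 2: Pomc at 27015 and 61936 CPM, Tshb at 229 and 440.13 CPM, Gh at 53470 and 63848 CPM and Tbx19 at 143 and 214 CPM. The adults were 1 male and 1 female, and which was which is not given. With 1 value for each mouse there is no test of these differences, and their relation to Cyp26b1 was not tested.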
